A study of Daucus carota with 6 samples.

Results

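Genes of auxin synthesis, transport and response were followed in RNA-seq of carrot (Daucus carota) fleshy roots, the swollen storage taproots. They were taken as every gene whose deposited protein description contains auxin, indole-3-acetic, indole-3-pyruvate or SAUR, which gave 126 of 35073 genes. Of these, 73 had at least 1 FPKM in at least 3 of the 6 samples and were tested. FPKM is a level scaled for gene length and for library size. The other 53 were not tested, 20 of them because they were listed at 0 in all 6 samples, and the highest value among the 53 was 6.5 FPKM.

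Roots of betanin-transgenic carrots (BC, 3 samples) were set against roots of non-transgenic carrots (WT, 3 samples). BC plants come from stable transformation with CYP76AD1S, cDOPA5GTS and DODA1S, genes for making the red pigment betanin, which then accumulates throughout the plant, and WT plants carry none of them. The labels give no cultivar, root age, harvest stage or number of independent lines, nor is it stated that samples came from different plants. Each p-value is therefore relative to the sample-to-sample spread alone, part of which may be technical. The introduced genes were not analysed here.

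Auxin (indole-3-acetic acid) is made from tryptophan by aminotransferases and then by YUCCA flavin monooxygenases, and is moved from cell to cell by influx carriers of the AUX1/LAX family and by PIN efflux carriers. Inside the cell it joins a TIR1/AFB receptor to an Aux/IAA repressor. The repressor is then degraded, which frees the auxin response factors (ARFs) that it had held together with a TOPLESS co-repressor. Aux/IAA, SAUR and GH3 genes are themselves rapid auxin targets, and GH3 enzymes tie auxin to amino acids while ILR1-type hydrolases release it again. These roles are known mainly from Arabidopsis thaliana. In storage roots and woody stems auxin is best known for its action in the vascular cambium and in xylem formation.

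The 2 groups differed in many genes, which sets the scale for every count here. FPKM summed to between 1184880 and 1287460 in BC samples and to between 1141950 and 1186760 in WT samples, and read depth is unknown from such values. Of 21033 genes tested, 46.4% were called, 22.8% higher in BC and 23.5% lower, and the values of the groups did not overlap for 57.1%. Calls rest on limma, with Benjamini-Hochberg adjustment of p over these 21033 genes and a threshold of 0.05. Genes described as light-harvesting, photosystem (I or II) or RuBisCO small subunit proteins summed to 22150 to 26240 FPKM in BC samples and to 6517 to 9805 FPKM in WT samples. Of the 63 tested, 45 were called higher and 4 lower. Carrot root markers (Dau c 1 allergens and phytoene synthases) summed to 5132 to 10780 FPKM in BC samples and to 3018 to 3256 FPKM in WT samples. Of 6 tested, 4 were called higher and 1 lower, a Dau c 1-like gene (DCAR_023311, log2 fold change -1.81). Most of the sum was 1 gene, DCAR_027034, described as a carrot pathogenesis-related protein, at 8060, 9076 and 4222 FPKM in BC samples. Phloem markers summed to 64.5 to 134 FPKM in BC samples and to 335 to 1072 FPKM in WT samples, with 0 of 10 tested genes called higher and 5 lower. The 5 were all described as phloem protein 2-like, and 1 of them (novel558) was at 407, 673 and 179 FPKM in WT samples. The tested sieve element occlusion genes on the list were not called, with log2 fold changes of 0.54 and 0.30. None of the other marker lists was at 0 throughout. The 4 xylem protease genes summed to 11.7 to 21.2 FPKM in BC samples and to 9.24 to 11.04 FPKM in WT samples. A list of 6 genes found by dividing-cell words summed to 409 to 482 FPKM in BC samples and to 353 to 428 FPKM in WT samples. Of its 5 tested genes, 2 were called higher, both of cyclin-dependent kinase B2-1 type, and 0 lower. Cyclin-B1-2-like (novel3143) carried most of that sum, at 376, 359 and 325 FPKM in BC samples. The words also took in a calcyclin-binding protein gene (DCAR_003916), which is not a cyclin, at 54.5 to 86.1 FPKM in BC samples. The part that tissue makeup plays in the auxin results was not tested. In whole roots, fewer cells of a type and less RNA per cell cannot be told apart.

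Of the 73 tested auxin genes, 20 were called higher in BC (27.4%, beside 22.8% of all genes), 13 were called lower (17.8%, beside 23.5%) and 40 were not called. As a whole the genes therefore stood near the background. Their median log2 fold change was 0.0932, beside -0.0157 for all tested genes, and was -0.00869 with samples rescaled to equal totals. A log2 fold change here is BC minus WT on the log2(FPKM + 1) scale, which understates the changes of low genes. The groups did not overlap for 19 genes above WT, where the background is 27.1%, and for 15 below WT, where it is 30.0%. By class, the counts stand beside the same 22.8% of all genes called higher and 23.5% lower. Aux/IAA genes had 10 of 21 called higher (47.6%) and 1 lower (4.76%), with a median of 0.815. ARF genes had 2 of 24 called higher (8.33%) and 8 lower (33.3%), with a median of -0.205. With the ARF5 entries counted once and a gene of double description left out, 5 of 21 were called lower (23.8%). The share of ARF genes called lower was then the background. SAUR genes had 4 of 11 called higher (36.4%) and 2 lower (18.2%), and no member of the 5 tested efflux carriers or 2 tested GH3 genes was called. Differences between classes were not tested. Of the 73 genes, 3 passed the filter through BC samples alone and 5 through WT samples alone, so a difference was built into these. With any 1 sample left out, 25 of the 33 called genes were called in every fit; the 8 others are given with the samples their calls rest on.

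**Figure D1:**
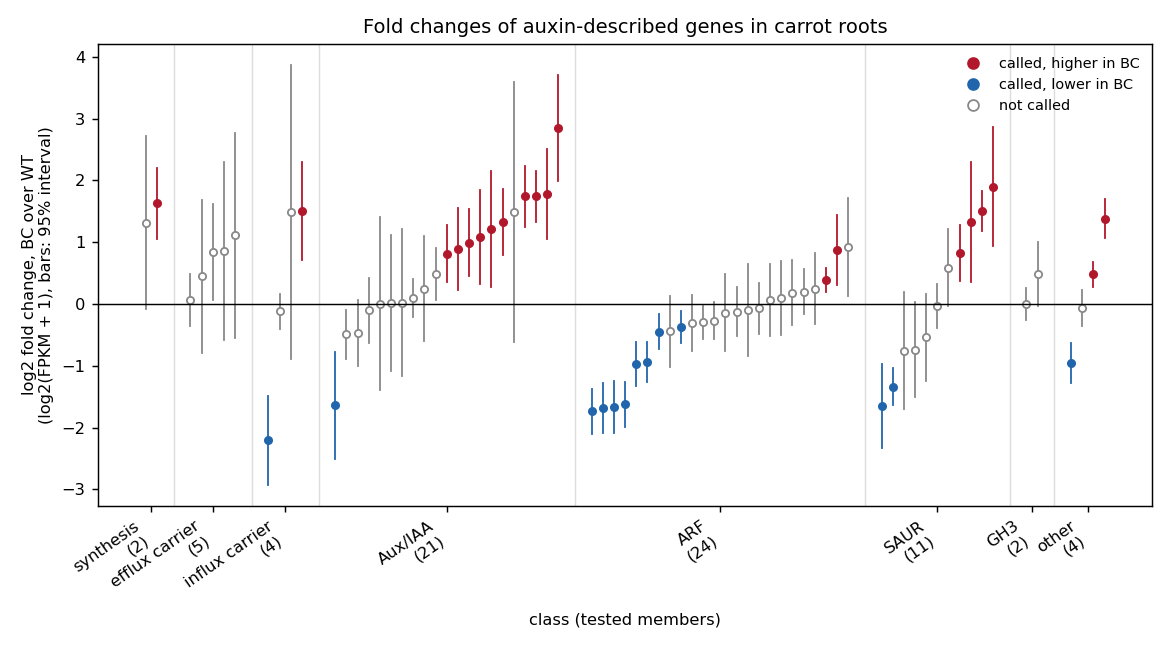
Log2 fold changes, BC over WT on the log2(FPKM + 1) scale, of the 73 tested genes by class, each point a gene with its 95% interval; red points were called higher in BC, blue points lower, and open points were not called. Called Aux/IAA genes lie above 0 with 1 exception, called ARF genes lie below 0 with 2 exceptions, and the 5 efflux carriers lie above 0 (4 of 5 with equal totals or quantile normalization), 4 of them with intervals that cross it.

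Synthesis genes were read at low levels in both groups. Of 11 YUCCA-type genes, which carry out the last step to auxin, 2 were tested. YUCCA3 (DCAR_027361) was at 2.59, 4.02 and 4.06 FPKM in BC samples, against 0.18, 0.90 and 0.37 FPKM in WT samples. All BC samples lay above all WT samples, and the log2 fold change was 1.63 ± 0.24 (SE; limma adjusted p = 0.00216). The gene passed the filter through BC samples alone, so part of that difference was built in. YUCCA6-like (DCAR_000740) was at 3.26, 0.76 and 7.22 FPKM in BC samples, against 0.22, 1.59 and 0.26 FPKM in WT samples. Here BC replicate 2 lay within the WT values, and the gene was not called (log2 fold change 1.32 ± 0.58 SE, limma adjusted p = 0.109). The other 9 genes reached at most 1.04 FPKM. Summed over all 11, the level was 8.05 ± 4.04 FPKM in BC and 1.82 ± 1.67 FPKM in WT (SD, n = 3 each), and YUCCA3 was named after its values were seen.

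A gene described as tryptophan aminotransferase-related protein 3-like (novel440) was at 14.6, 18.8 and 8.46 FPKM in BC samples, against 4.04, 3.38 and 4.60 FPKM in WT samples. Members of the enzyme family turn tryptophan into indole-3-pyruvate, the YUCCA substrate, but the description alone does not show that this one does. The gene was higher in all 3 BC samples than in any WT sample, with a log2 fold change of 1.52 ± 0.28 (SE, limma adjusted p = 0.00496). A related gene, tryptophan aminotransferase-related protein 2 (DCAR_026162), picked with its values known, ranged from 0.29 to 4.24 FPKM in BC samples and from 0.57 to 1.58 FPKM in WT samples and was not called.

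The efflux carriers, the PIN-type proteins that set the direction of auxin flow, showed no called gene among 5 tested, although all 5 fitted fold changes were positive (median 0.84), or 4 of 5 with equal totals or quantile normalization. Auxin efflux carrier component 1c (DCAR_014502) was at 12.5, 2.14 and 20.8 FPKM in BC samples, against 2.53, 5.64 and 2.89 FPKM in WT samples. One component 1b gene (DCAR_013647) was at 5.37, 0.61 and 8.07 FPKM in BC samples, against 1.67, 1.6 and 1.24 FPKM in WT samples. The other component 1b gene (DCAR_016884) was at 4.06, 0.73 and 6.50 FPKM in BC samples, against 1.69, 2.57 and 1.69 FPKM in WT samples. In all 3 genes BC replicates 1 and 3 lay above every WT sample, while BC replicate 2 lay below every WT sample. Their log2 fold changes of 1.11, 0.86 and 0.45 had limma adjusted p of 0.232, 0.285 and 0.513. Component 7 (DCAR_007294), the most abundant by its mean, was at 10.1, 6.77 and 14.0 FPKM in BC samples, against 3.75, 7.96 and 4.28 FPKM in WT samples. Its log2 fold change of 0.84 ± 0.32 (SE) also missed the threshold (limma adjusted p = 0.0728). Component 7-like (novel2243) was not called, at 3.99 ± 0.49 FPKM in BC and 3.79 ± 0.86 FPKM in WT (SD, n = 3 each). In the deposited domain notes 9 of the 10 efflux carrier genes had the carrier domain, and the component 7-like gene lacked it. The component 1b and 1c genes and the component 7-like gene were picked out after their values were seen.

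Influx carriers, which take auxin up from the cell wall, gave 1 gene higher, 1 lower and 2 not called out of 4. Each direction was thus 25.0%, beside 22.8% of all genes higher and 23.5% lower. Auxin transporter-like protein 2 was the description of 2 genes. The first (DCAR_028818) was at 29.8, 19.8 and 44.9 FPKM in BC samples, against 8.70, 14.3 and 7.60 FPKM in WT samples, and rose by a log2 fold change of 1.51 ± 0.33 (SE; limma adjusted p = 0.0106). The second (DCAR_003154) was at 36.9, 3.86 and 86.2 FPKM in BC samples, against 5.37, 12.7 and 7.25 FPKM in WT samples. Its BC replicates spread 22.3-fold, so that a similar log2 fold change of 1.49 came with an SE of 0.995 and was not called (limma adjusted p = 0.260). Auxin transporter-like protein 3 (DCAR_014114) went the other way, at 0.17, 0.04 and 0.21 FPKM in BC samples against 6.52, 2.35 and 4.73 FPKM in WT samples. It fell by 2.21 ± 0.30 on the log2 scale (SE; limma adjusted p = 0.00155), was close to absent in BC, and passed the filter through WT samples alone. Auxin transporter-like protein 4 (DCAR_018713) averaged 10.9 ± 1.1 FPKM in BC and 11.9 ± 0.73 FPKM in WT (SD, n = 3 each) and was not called. The protein 3 and protein 4 genes were chosen after their values were seen.

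**Figure D2:**
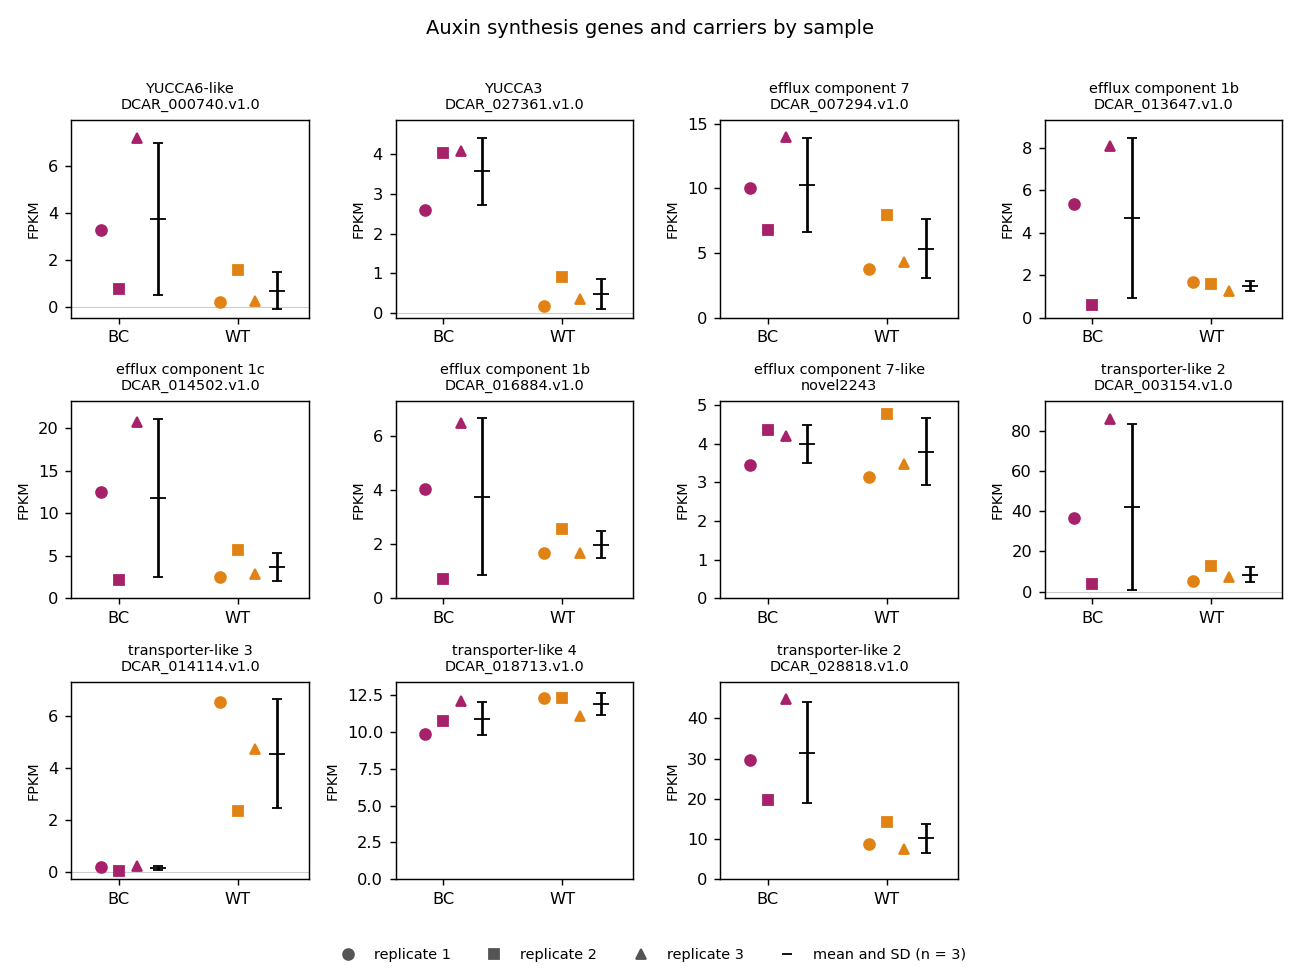
FPKM of the 2 tested synthesis genes, 5 efflux carriers and 4 influx carriers in each sample; symbols mark the replicate, and the black bar beside each group is its mean with SD (n = 3). In the component 1b and 1c panels and in the DCAR_003154 panel, BC replicate 2 (square) lies below every WT sample while BC replicates 1 and 3 lie above them.

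The sample-to-sample pattern of these carriers recurred in other auxin genes. BC replicates 1 and 3 lay above all WT samples, and BC replicate 2 did not, in 14 of 73 tested auxin genes (19.2%) and in 918 of 21033 genes (4.36%). The 14 included 4 of 5 efflux carriers, 4 of 21 Aux/IAA and 2 of 24 ARF genes. Because the carriers in which the pattern was first seen are among the 14, the share is not independent of them. BC replicate 2 was the lowest BC sample in 57.5% of the auxin genes and in 38.6% of all genes. Without BC replicate 2, limma called 28 auxin genes higher and 12 lower, where 20.4% of all genes were called higher and 18.1% lower. All 20 genes called higher with every sample remained so, 8 were gained, and 1 gene called lower, ARF2-like (DCAR_025655), was lost. The gained genes were YUCCA6-like, 4 efflux carriers (all but component 7-like), the second transporter-like protein 2 gene, IAA12 and ARF17-like. All 8 had the pattern, so leaving out the sample in which they were low favoured their gain. Efflux carrier component 1c, for example, then had a log2 fold change of 1.93 (limma adjusted p = 0.00809) and DCAR_003154 of 2.68 (limma adjusted p = 0.00657).

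Outside the auxin descriptions, 3 of the 46 other pathway genes tested had the pattern (6.52%, beside 4.36% of all genes), and 2 of them are named here because they had it. WALLS ARE THIN 1 (WAT1) is a vacuolar auxin exporter needed for secondary walls in Arabidopsis fibres. One WAT1-like gene (DCAR_022449) was at 206, 20.8 and 444 FPKM in BC samples, against 62.7, 172 and 78.1 FPKM in WT samples. The other tested one (DCAR_013841) was at 78.0, 9.18 and 120.1 FPKM in BC samples, against 28.6, 29.3 and 27.9 FPKM in WT samples, and neither was called. The 4 xylem markers, all XCP-type cysteine proteases, did not move together. XCP2 (DCAR_016796) had the pattern and was at 4.34, 0.41 and 7.58 FPKM in BC samples, against 1.42, 1.82 and 1.71 FPKM in WT samples. One XCP2-like gene (novel2760) was at 4.66, 6.26 and 6.90 FPKM in BC samples, against 1.09, 1.6 and 0.96 FPKM in WT samples, and was called higher, with BC replicate 2 not the lowest. The other XCP2-like gene (novel2601) was at 5.17, 4.47 and 3.56 FPKM in BC samples, against 5.89, 7.04 and 5.98 FPKM in WT samples, and was not called. XCP1-like (DCAR_013940) was too low to be tested. The part that xylem content plays in the carrier values was not tested. This pattern and the fit without BC replicate 2 were singled out after the values were seen.

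Among Aux/IAA repressors, 47.6% of the tested genes were called higher in BC, beside 22.8% of all genes, and 4.76% lower, beside 23.5%. There were 32 genes, all with the Aux/IAA domain in the deposited domain notes. Of the 21 tested, 10 were called higher, 1 lower and 10 were not called. Among the calls, 2 of those higher passed the filter through BC samples alone, and the 1 lower through WT samples alone. Their directions were fixed by the filter, so both shares rest on it in part. Summed over all 32, the level was 764.9 ± 26.8 FPKM in BC, with samples at 795, 756 and 743, and 461 ± 32.5 FPKM in WT, with samples at 464, 492 and 428 (SD, n = 3 each). The sums did not overlap, but 1 gene carries much of this. Without DCAR_007553 the other 31 summed to 575.5, 406 and 610.1 FPKM in BC samples and to 360.2, 396 and 322 FPKM in WT samples. These sums did not overlap either, but with samples rescaled to equal totals BC replicate 2 (385 FPKM) fell within the WT values (336 to 418 FPKM).

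IAA7-like (DCAR_030713) had the largest change of the tested auxin genes on the log2(FPKM + 1) scale, although by mean FPKM some low genes differed by more. It was at 64.4, 45.7 and 47.6 FPKM in BC samples, against 12.2, 4.12 and 4.93 FPKM in WT samples. The mean was 7.43-fold higher in BC, and the log2 fold change was 2.85 ± 0.36 (SE; limma adjusted p = 0.0011). IAA7 is among the repressors whose stabilised Arabidopsis mutants are auxin resistant. Its neighbour with no gene between in the RefSeq assembly DH1 v3.0, auxin-induced protein 22D-like (DCAR_030712), was at 23.0, 12.6 and 19.1 FPKM in BC samples, against 7.98, 7.47 and 10.03 FPKM in WT samples. It too lay above WT in all BC samples, with a log2 fold change of 0.99 ± 0.23 (SE; limma adjusted p = 0.0122).

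IAA13-like (DCAR_012591) was at 23.8, 12.3 and 29.1 FPKM in BC samples, against 6.08, 5.27 and 4.51 FPKM in WT samples. It rose by a log2 fold change of 1.78 ± 0.30 (SE; limma adjusted p = 0.0038). In Arabidopsis, IAA13 is the close paralogue of IAA12 (BODENLOS), the repressor that holds ARF5 (MONOPTEROS) in vascular and embryo development. The carrot gene described as IAA12 (DCAR_027352) was at 41.3, 5.10 and 79.3 FPKM in BC samples, against 10.5, 10.05 and 6.35 FPKM in WT samples. Like the carriers, it was high in BC replicates 1 and 3 and below all WT samples in BC replicate 2, and it was not called (log2 fold change 1.49 ± 0.88 SE, limma adjusted p = 0.211). The most abundant gene of the class by its mean, DCAR_007553, is described both as IAA1-like and as a CDI-like protein, so that its reads may belong to either. It was at 219, 350.4 and 133 FPKM in BC samples, against 104, 96.0 and 105 FPKM in WT samples, with a log2 fold change of 1.09 ± 0.32 (SE; limma adjusted p = 0.0303). That call was lost without BC replicate 1 (limma adjusted p = 0.0872) and without any 1 of WT replicates 1, 2 and 3 (limma adjusted p = 0.0750, 0.0756 and 0.0783).

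The 22D-like and IAA12 genes and all further Aux/IAA genes were picked with their values known. IAA26-like (DCAR_026353) averaged 17.5 ± 2.4 FPKM in BC and 4.61 ± 1.4 FPKM in WT (SD, n = 3 each), without overlap. A second IAA26-like gene (novel390) was the class's only gene called lower, at 0.70, 0.05 and 0.44 FPKM in BC samples, against 1.87, 6.04 and 2.86 FPKM in WT samples. Their log2 fold changes were 1.74 and -1.64 (limma adjusted p = 0.000898 and 0.0104), but novel390 passed the filter through WT samples alone, so its direction was fixed by the filter. IAA27-like (DCAR_023070) averaged 14.3 ± 7.0 FPKM in BC and 5.36 ± 2.2 FPKM in WT and was called (limma adjusted p = 0.043), although BC replicate 2 (7.59 FPKM) lay just under WT replicate 2 (7.87 FPKM). Its call was lost without BC replicate 1 or 3 or WT replicate 1 or 3 (limma adjusted p = 0.101 to 0.135). Low genes made up the rest: IAA16-like (DCAR_018448) had 2.34 to 3.25 FPKM in BC samples and 0 to 0.18 FPKM in WT samples, and IAA6-like (DCAR_016230), IAA1-like (DCAR_016231) and AUX28-like (DCAR_030810) all stayed below 5 FPKM. The IAA16-like and IAA6-like genes passed the filter through BC samples alone. The AUX28-like call was lost without BC replicate 1 or WT replicate 3 (limma adjusted p = 0.0516 to 0.0569), and the IAA1-like call without any 1 sample except BC replicate 2 (limma adjusted p = 0.0657 to 0.120). The IAA6-like and IAA1-like genes are neighbours in DH1 v3.0. Among genes not called, IAA27-like (DCAR_007573) was abundant, at 129 ± 19 FPKM in BC and 120.3 ± 8.8 FPKM in WT. IAA9 (DCAR_010763), known from tomato for its part in fruit set and leaf shape, was at 60.1 ± 25 FPKM in BC and 48.7 ± 16 FPKM in WT (SD, n = 3 each).

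ARF genes, the DNA-binding factors of the response, had 33.3% of the tested genes called lower, beside 23.5% of all genes, and 8.33% higher, beside 22.8%. Of 25 genes, 24 were tested, 8 called lower, 2 higher and 14 not called. The deposited domain notes gave the ARF domain for 22 of the 25. DCAR_025390, novel1598 and novel3147 lacked it, and each of them was called lower. With the ARF5 entries of 1 RefSeq gene counted once and the gene of double description left out, 5 of 21 were called lower (23.8%), which is the background, and 2 higher. Summed over all 25, the level was 643 ± 91.8 FPKM in BC, with samples at 609, 573 and 747, and 791 ± 24.7 FPKM in WT, with samples at 764.5, 814 and 794. In every BC sample the sum lay below the WT samples.

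ARF11-like (DCAR_025262) fell the most among genes above 5 FPKM described as an ARF alone. It was at 16.6, 22.6 and 16.8 FPKM in BC samples, against 58.2, 60.9 and 73.7 FPKM in WT samples, a mean 3.45-fold higher in WT. It fell by 1.74 ± 0.15 on the log2 scale (SE; limma adjusted p = 0.00023). A gene described both as ARF9 and as cinnamoyl-CoA reductase 2-like (DCAR_025390) was at 3.90, 4.70 and 6.60 FPKM in BC samples, against 17.7, 17.4 and 18.7 FPKM in WT samples, and its reads may belong to either. This gene has no ARF domain in the deposited domain notes. Its log2 fold change was -1.66 ± 0.18 (SE; limma adjusted p = 0.000535). ARF15 (DCAR_004039) was at 52.0, 54.4 and 54.6 FPKM in BC samples, against 123, 85.5 and 107 FPKM in WT samples (log2 fold change -0.94, limma adjusted p = 0.00196). In Arabidopsis, ARFs of these numbers belong to the branch that mainly represses transcription. ARF2-like (DCAR_025655) and ARF3-like (DCAR_007988), from repressor types too, had smaller changes, with log2 fold changes of -0.45 and -0.37. The genes of this paragraph are those that fell. The other ARF2-like gene (DCAR_016351) was not called (log2 fold change 0.20), and ARF18-like (DCAR_018803) was called higher (0.39). Whether repressor types differed from the other ARFs as a set was not tested. The ARF2-like call was lost without any 1 sample except BC replicate 3 (limma adjusted p = 0.0517 to 0.0747), and the ARF3-like call without BC replicate 1 or 3 or WT replicate 1 or 3 (limma adjusted p = 0.0528 to 0.103).

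Members of 1 ARF type could go opposite ways. Of the 2 genes described as ARF19-like, an activator type that drives lateral root formation in Arabidopsis, DCAR_011930 was at 14.1, 14.8 and 16.9 FPKM in BC samples, against 36.8, 25.7 and 30.4 FPKM in WT samples. The other, DCAR_020464, was at 16.5, 12.3 and 21.4 FPKM in BC samples, against 7.09, 11.04 and 7.72 FPKM in WT samples. Neither overlapped between groups, the first falling by 0.96 ± 0.15 (SE; limma adjusted p = 0.00261) and the second rising by 0.88 ± 0.24 (SE; limma adjusted p = 0.0226) on the log2 scale. By their means, DCAR_011930 averaged 15.3 FPKM in BC and 31.0 FPKM in WT, and DCAR_020464 averaged 16.8 FPKM in BC and 8.62 FPKM in WT. The rise of DCAR_020464 was not called without BC replicate 1 or 3 (limma adjusted p = 0.0716 and 0.0524) nor without WT replicate 1 or 3 (limma adjusted p = 0.0735 and 0.0794). ARF18-like (DCAR_018803) was the other gene called higher, at 49.3 ± 3.0 FPKM in BC and 37.2 ± 0.28 FPKM in WT (SD, n = 3 each; log2 fold change 0.39, limma adjusted p = 0.0081), while the 2 other ARF18-like genes were not called.

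Of the activator types, no gene with a locus ID described as ARF5, ARF6 or ARF8 was called. ARF5 (DCAR_022437) averaged 38.1 ± 8.0 FPKM in BC and 53.0 ± 15 FPKM in WT, ARF6 (DCAR_003884) 38.2 ± 14 FPKM in BC and 34.3 ± 4.9 FPKM in WT, and ARF8 (DCAR_014129) 32.4 ± 8.1 FPKM in BC and 33.4 ± 1.4 FPKM in WT (SD, n = 3 each). The 95% interval of the ARF5 log2 fold change ran from -1.02 to 0.14. ARF5-like (DCAR_017496) averaged 47.2 ± 8.8 FPKM in BC and 40.3 ± 12 FPKM in WT, and ARF6-like (DCAR_007870) 19.1 ± 4.6 FPKM in BC and 23.6 ± 3.4 FPKM in WT (SD, n = 3 each). A further pair of ARF5 entries (novel1598 and novel3147) was listed at 0 in all BC samples and at 1.77 to 2.77 FPKM in WT samples. Both have their best description from the same RefSeq gene as DCAR_022437, so they may be pieces of 1 gene. They passed the filter through WT samples alone, and 2 of the 8 genes called lower rest on them. The most abundant ARF, ARF2-like (DCAR_016351), was at 108, 83.9 and 128 FPKM in BC samples, against 95.2, 89.5 and 89.9 FPKM in WT samples and was not called. ARF genes outside the naming rule (ARF2-like DCAR_025655, ARF3-like, ARF5, ARF5-like, ARF6, ARF6-like, ARF8, ARF15 and ARF19-like DCAR_011930) were chosen after their values were seen.

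**Figure D3:**
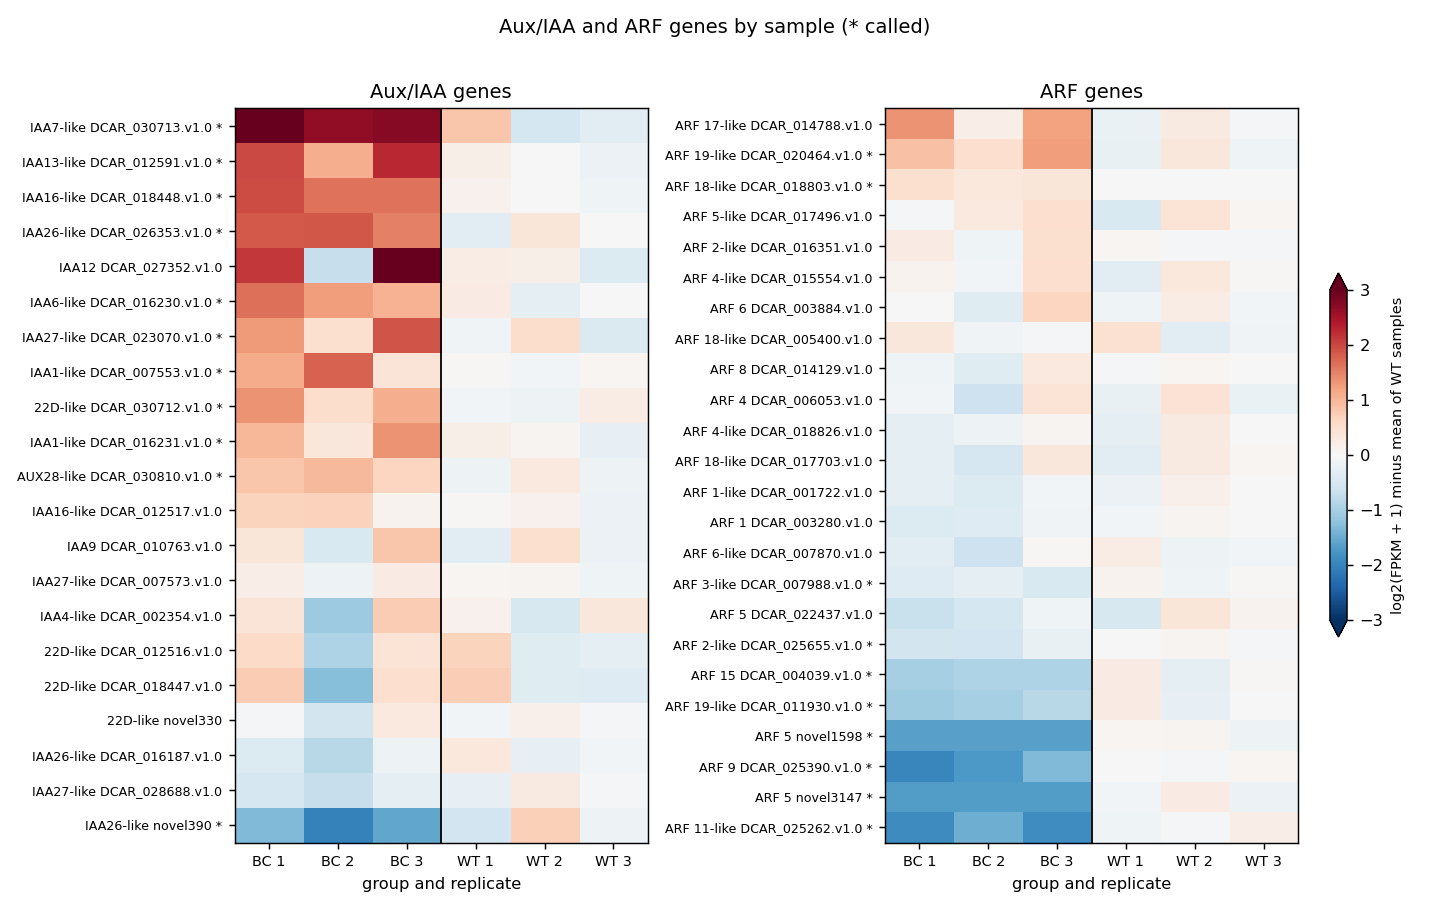
Levels of the 21 tested Aux/IAA genes and 24 tested ARF genes in each sample, as log2(FPKM + 1) minus the mean of the WT samples, with genes ordered by fold change and called genes starred. The upper Aux/IAA rows are red in all 3 BC samples except IAA12 (DCAR_027352), which is blue in BC replicate 2, and the lowest ARF rows are blue in all 3 BC samples.

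SAUR genes, a large family of small proteins of which many promote cell expansion, were mostly low or unread in these roots. Of 29 genes, 11 were tested and 9 were listed at 0 in all samples. ARG7-like (DCAR_010621) was at 44.2, 42.6 and 52.9 FPKM in BC samples, against 5.80, 21.5 and 12.3 FPKM in WT samples (log2 fold change 1.90 ± 0.40 SE, limma adjusted p = 0.0089). SAUR32-like (DCAR_020356) was at 38.9, 48.2 and 39.6 FPKM in BC samples, against 12.1, 15.3 and 15.4 FPKM in WT samples (log2 fold change 1.502 ± 0.14 SE, limma adjusted p = 0.000268). Both were above WT in every BC sample. SAUR32 (DCAR_008966), picked with its values known, was at 358, 509 and 338 FPKM in BC samples, against 257, 187 and 228 FPKM in WT samples (log2 fold change 0.83, limma adjusted p = 0.0127). SAUR71-like (DCAR_016832), chosen in the same way, averaged 25.1 ± 9.4 FPKM in BC and 9.60 ± 5.1 FPKM in WT with overlap, and its call (limma adjusted p = 0.036) was lost without BC replicate 1 or 3 or WT replicate 1 or 3 (limma adjusted p = 0.1 to 0.119).

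In the other direction, SAUR40-like (DCAR_022787) was at 24.4, 25.9 and 19.7 FPKM in BC samples, against 55.4, 60.2 and 65.3 FPKM in WT samples (log2 fold change -1.34 ± 0.13 SE, limma adjusted p = 0.000317). A further SAUR32-like gene (DCAR_002985), also picked with its values known, was listed at 0 in all BC samples and at 1.28, 3.77 and 1.84 FPKM in WT samples. It passed the filter through WT samples alone, so its direction was fixed by the filter. The most abundant SAUR, and the most abundant auxin gene, was SAUR36-like (DCAR_024648), at 805, 905 and 707 FPKM in BC samples, against 883, 703 and 885 FPKM in WT samples. Its groups overlapped and it was not called. It alone made up most of the class sum, which was 1398 ± 192 FPKM in BC and 1219 ± 133 FPKM in WT (SD, n = 3 each). Outside the auxin descriptions, 29 further genes carried the SAUR domain in the deposited domain notes, and of the 8 tested, 0 were called higher and 4 lower in limma, so that the class read 4 higher and 6 lower with them. The 5 further ARF genes and 3 tested further Aux/IAA genes found by domain gave 0 calls.

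GH3 genes, which store or inactivate auxin as amino acid conjugates, gave no call. Of 9 genes, 2 were tested and both are described as GH3.6-like. DCAR_023147, also described as a chaperone-like protein of POR1, was at 97.7, 103.7 and 82.0 FPKM in BC samples, against 90.3, 98.7 and 93.3 FPKM in WT samples. The 95% interval of its log2 fold change ran from -0.26 to 0.26. DCAR_022500, picked with its values known, was at 9.32, 7.69 and 8.99 FPKM in BC samples, against 6.14, 7.95 and 4.12 FPKM in WT samples, and was not called (log2 fold change 0.48, 95% interval -0.04 to 1.01, limma adjusted p = 0.113). It was called higher without WT replicate 2 (limma adjusted p = 0.0379). The other 7 reached at most 2.12 FPKM, and with no filter 2 of the 9 genes were called higher.

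Of 6 auxin-described genes outside these classes, 4 were tested. An ARGOS-like gene (novel3047), named for auxin-regulated control of organ size in Arabidopsis, was at 25.3, 34.3 and 27.5 FPKM in BC samples, against 9.96, 10.5 and 10.9 FPKM in WT samples (log2 fold change 1.38 ± 0.13 SE, limma adjusted p = 0.000347). Auxin-binding protein T85 (DCAR_012454), of the ABP1 type, was at 78.1, 73.3 and 70.7 FPKM in BC samples, against 49.9, 56.6 and 52.0 FPKM in WT samples (log2 fold change 0.48 ± 0.09 SE, limma adjusted p = 0.00466). BIG (DCAR_011007), a very large protein required for polar auxin transport, was at 14.6, 15.3 and 19.3 FPKM in BC samples, against 31.5, 30.4 and 36.1 FPKM in WT samples. The first 2 rose in BC and BIG fell by 0.96 ± 0.13 (SE) on the log2 scale (limma adjusted p = 0.00172), all 3 without overlap. AUXIN SIGNALING F-BOX 2-like (DCAR_016627), a receptor, was not called, at 70.8 ± 10 FPKM in BC and 73.8 ± 4.7 FPKM in WT (SD, n = 3 each).

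Pathway genes without an auxin word in their description were read from a separate list of 51, with 46 tested, 5 called higher (10.9%, beside 22.8% of all genes) and 11 lower (23.9%, beside 23.5%). The TIR1-type receptors fell in 3 of 4 genes (75.0%, beside 23.5% of all genes) and rose in none. TIR1-like (DCAR_012425) was at 36.3, 39.2 and 40.4 FPKM in BC samples, against 66.9, 70.3 and 62.2 FPKM in WT samples (log2 fold change -0.77 ± 0.09 SE, limma adjusted p = 0.000722). TIR1 (DCAR_018358) was at 39.6, 39.6 and 52.6 FPKM in BC samples, against 68.3, 63.5 and 69.8 FPKM in WT samples (log2 fold change -0.61 ± 0.13 SE, limma adjusted p = 0.00874). The 4 receptor genes together summed to 123 ± 13.9 FPKM in BC and 184 ± 1.5 FPKM in WT (SD, n = 3 each), without overlap. The count and the sum leave out the receptor AUXIN SIGNALING F-BOX 2-like (DCAR_016627), whose description has an auxin word. That gene averaged 70.8 FPKM in BC and 73.8 FPKM in WT and was not called, so the fall does not extend to every receptor. The call of the third, TIR1-like DCAR_004140 (log2 fold change -0.31, limma adjusted p = 0.0351), was lost in 5 of the 6 fits that left out 1 sample, all but the one without BC replicate 3, with limma adjusted p of 0.0601 to 0.124.

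Of 7 TOPLESS-type co-repressor genes 2 fell (28.6%, beside 23.5% of all genes), both of TOPLESS-related type 4. DCAR_009319 averaged 36.1 ± 2.6 FPKM in BC and 56.1 ± 2.8 FPKM in WT, and DCAR_021347 averaged 42.2 ± 1.7 FPKM in BC and 63.4 ± 2.7 FPKM in WT (SD, n = 3 each). The 2 genes described as TOPLESS itself were not called. Among hydrolases that free auxin from its amino acid conjugates, 3 of 8 tested genes rose (37.5%, beside 22.8% of all genes). A further 2 fell (25.0%, beside 23.5%). ILR1-like 3 (DCAR_009171) averaged 19.6 ± 0.71 FPKM in BC and 10.7 ± 1.1 FPKM in WT, ILR1-like 6 (DCAR_003557) 7.93 ± 1.3 FPKM in BC and 2.88 ± 1.5 FPKM in WT, and ILR1-like 4 (DCAR_026370) 63.7 ± 5.2 FPKM in BC and 47.8 ± 0.83 FPKM in WT (SD, n = 3 each). Their log2 fold changes were 0.82, 1.25 and 0.40, and none of the 3 overlapped between groups. Of the 8 hydrolases, 4 lay above WT without overlap, where the background is 27.1%, and 3 below, where it is 30.0%. ILR1-like 7 (DCAR_009170), picked with its values known, was listed at 0 in all BC samples and at 5.30, 2.71 and 2.82 FPKM in WT samples. A low ILR1-like gene, DCAR_020729, picked in the same way, was the other one called lower, and both passed the filter through WT samples alone.

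ABCB transporters, a family in which some members carry auxin, held the largest change of the list. The description alone does not show that the genes listed here do. ABCB 4-like (DCAR_018243) was at 12.5, 14.0 and 15.03 FPKM in BC samples, against 0.07, 0.08 and 0.08 FPKM in WT samples (log2 fold change 3.78 ± 0.14 SE, limma adjusted p = 4.72e-06). The gene passed the filter through BC samples alone. ABCB 1-like (DCAR_015001) was at 0.80, 0.41 and 1.86 FPKM in BC samples, against 10.4, 8.95 and 13.9 FPKM in WT samples (log2 fold change -2.62 ± 0.29 SE, limma adjusted p = 0.000667). ABCB 19 (DCAR_011141), the member best known for auxin transport in Arabidopsis stems, averaged 20.4 ± 3.3 FPKM in BC and 33.0 ± 0.89 FPKM in WT and fell by 0.68 ± 0.12 (SE; limma adjusted p = 0.00527) on the log2 scale. ABCB 4-like was thus near absent in WT, while ABCB 1-like was low in BC. Of the 7 genes, 1 was called higher (14.3%, beside 22.8% of all genes), 2 lower (28.6%, beside 23.5%) and 4 were not called. Among 11 PIN kinase genes only D6PKL1-like (DCAR_006152) was called, lower in BC (log2 fold change -0.49), as was LBD16-like (DCAR_007333), a target in lateral root formation (log2 fold change -0.71). Their limma adjusted p were 0.0302 and 0.0376. The first was lost without BC replicate 1 or 2 or WT replicate 1 or 3 (limma adjusted p = 0.0724 to 0.122), and the second without BC replicate 2 or 3 or WT replicate 1 or 3 (limma adjusted p = 0.0673 to 0.127).

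**Figure D4:**
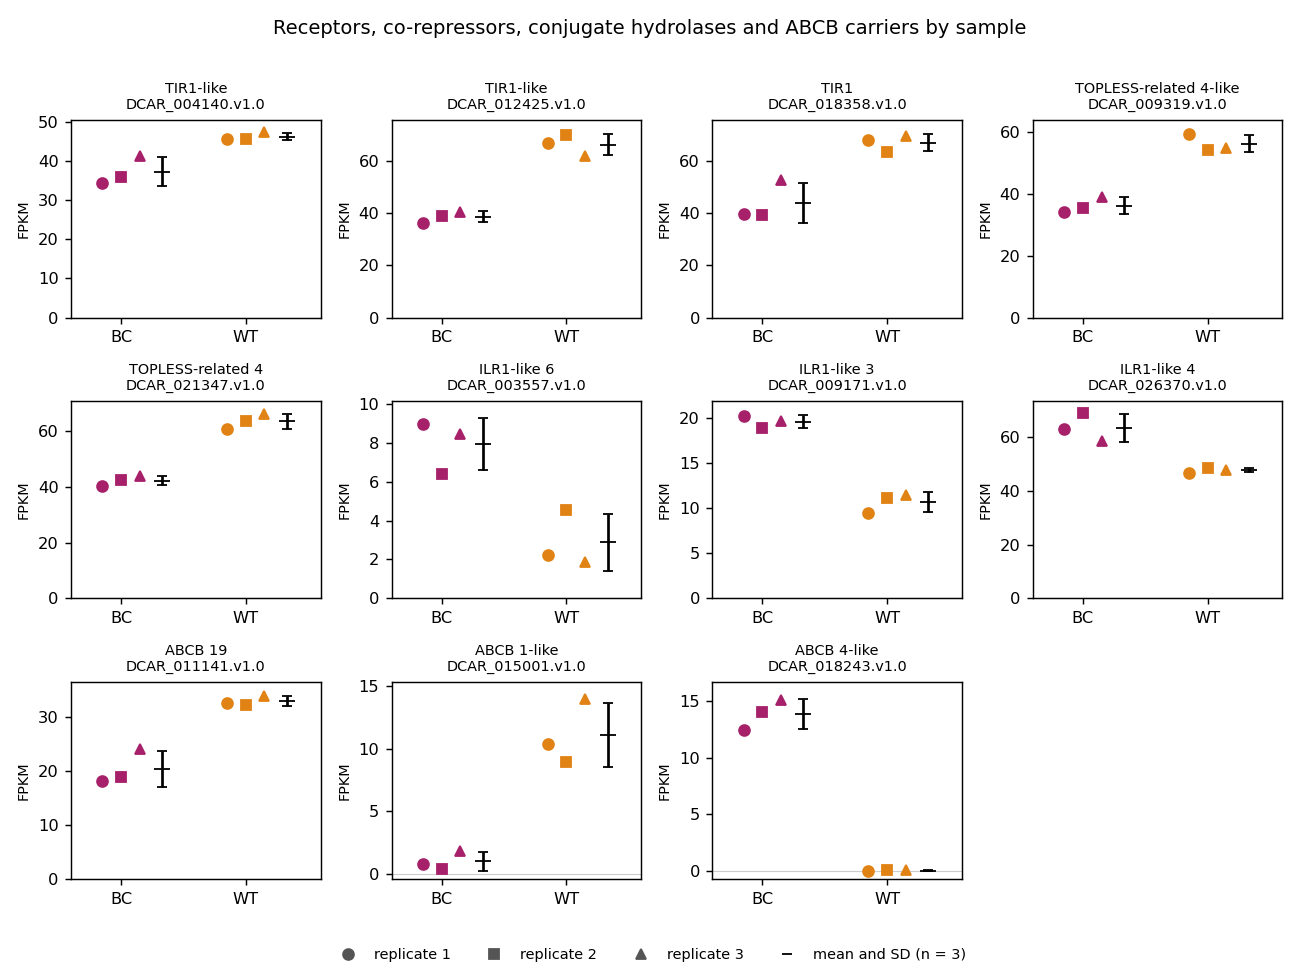
FPKM in each sample of the called pathway genes averaging 5 FPKM or more in a group, among receptors, TOPLESS-type co-repressors, conjugate hydrolases and ABCB carriers; symbols mark the replicate, and the black bar beside each group is its mean with SD (n = 3). The 3 receptors and 2 co-repressors lie lower in BC, the 3 ILR1-like genes lie higher in BC, and the ABCB genes differ in direction.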

How the data were processed

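Purified mRNA of 6 root samples was sequenced, per the labels' protocols, and the authors deposited 1 table with FPKM per gene and sample, rounded to 2 decimals. RSEM is named in the submitters' processing notes. Its version is not given in the sources used here, nor are the aligner, genome build and annotation. RSEM estimates how reads are divided among similar genes, so values of close paralogues are uncertain. No read counts were at hand, so precision comes from the 3 replicates alone.

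Rows reaching 1 FPKM in 3 samples or more (21033) entered a linear model of log2(FPKM + 1), BC minus WT (limma 3.58.1 in R 4.3.3, lmFit followed by trended eBayes). P-values were adjusted by Benjamini-Hochberg over all 21033 rows, with a threshold of 0.05, and intervals are the model's 95% intervals. The model was tested on simulated data. Classes, pathway genes and markers were found by words in the descriptions, and 111 of the 126 genes matched a RefSeq gene of DH1 v3.0, used for names and gene order alone. Locus IDs are printed without their version suffix. Figures were drawn with matplotlib 3.10.9.

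Named genes were, per class, up to 2 called genes with the largest and 2 with the smallest log2 fold change and an average of 5 FPKM or more in a group, the most abundant gene, and the called pathway genes at that level. Any other gene is marked as picked with its values known. The members and lists were chosen with earlier results of these data known.

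Alternatives were pseudocounts of 0.1 and 5, no filter, a filter at 5 FPKM, 3 rescalings (equal totals, quantile normalization and median-ratio size factors), untrended eBayes, the replicate number as a block, locus IDs alone, and each sample left out. Adding genes by domain, and counting the ARF5 entries once without genes of double description, were chosen after seeing the data.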

Additional observations from a re-analysis of the deposited data

How the results depend on the processing

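The 20 auxin genes called higher and 13 lower numbered 15 to 21 higher and 9 to 17 lower under the alternatives that kept every sample, and 14 to 28 higher and 11 to 14 lower with 1 sample left out. The highest, 28, came without BC replicate 2. The 13 called lower became 10 with the ARF5 entries counted once and genes of double description left out. With 1 sample left out, the classes ranged as follows in genes called higher: efflux carriers 0 to 4 (4 without BC replicate 2, 1 without WT replicate 2), synthesis 1 to 2, influx carriers 1 to 2, Aux/IAA 6 to 11 (6 without BC replicate 1 or WT replicate 3), ARF 1 to 3 and GH3 0 to 1. Aux/IAA genes called lower ranged over 1 to 2. A filter at 5 FPKM, which tests fewer genes, gave 0 synthesis genes higher, 0 influx carriers lower, 6 Aux/IAA genes higher and 1 SAUR gene lower. Aux/IAA genes called lower were 2 with equal totals, median-ratio size factors or quantile normalization and 0 with locus IDs alone, SAUR genes called lower were 6 with genes added by domain, and 2 GH3 genes were called higher with no filter. Beyond the fewer or added genes tested, the cause was not tested. Equal totals moved the median log2 fold change of all genes to -0.109, so changes under it are relative to that shift.

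Whether replicate numbers pair the samples is not stated in the labels. Deviations of same-numbered samples correlated at 0.196, -0.356 and -0.195 across genes, and not every sample correlated best with its own number. Deviations from a group mean are tied to one another within the group, so these correlations cannot exclude pairing. With the replicate number as a block, 17 auxin genes were called higher and 12 lower, with 1 ARF gene higher. The log2 fold change of SAUR36-like (DCAR_024648) changed sign, to 1.71e-05 with median-ratio size factors and over -0.141 to 0.0594 with 1 sample left out (0.0594 without BC replicate 3, 0.0233 without WT replicate 1 and 0.0248 without WT replicate 3). That of GH3.6-like (DCAR_023147) did so too, to 0.0303 with median-ratio size factors and over -0.0706 to 0.0971 with 1 sample left out (0.0971 without BC replicate 3 and 0.0342 without WT replicate 2). Neither gene was called in any of these. Depth is unknown from FPKM, so no limit from counting could be set for the low genes.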
